A study of Mus musculus with 6 samples.

Results

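The response of mouse embryonic stem (ES) cells to loss of the telomere protein TRF2 was followed in 4 of the 6 RNA-seq libraries of the study, chosen by their titles and treatment labels. The libraries titled ESC and ESC2 come from untreated ES cells, which the labels call wild-type. Those titled ESC_OHT and ESC2_OHT come from ES cells after 3 days of OHT (4-hydroxytamoxifen, a metabolite of tamoxifen), and their genotype label is TRF2-/-. All 4 share a C57BL/6 background and a culture period of 96 h. The other 2 libraries, of differentiated cells with 1 per group, enter the gene filter and the joint fit but add no residual degree of freedom. The labels give neither the driver of the deletion nor whether the cells are 1 clone, and no group received OHT without losing TRF2, so effects of OHT and of the loss cannot be told apart. Nor do they say whether replicates are separate cultures. The p-values therefore reflect the spread among these libraries alone, which may be technical. ESC_OHT was matched to ESC (pair 1) and ESC2_OHT to ESC2 (pair 2), a match that rests on the titles alone.

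TRF2, encoded by Terf2, is a subunit of shelterin, the protein complex that coats the TTAGGG repeats of mammalian telomeres. In most somatic cells its removal exposes chromosome ends to the ATM kinase and to end joining. ES cell cultures also hold rare cells in a transient two-cell-like state, marked by Zscan4 and other genes of the zygote's first wave of transcription.

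Total counts of the 4 libraries ran from 23534551 in ESC2_OHT to 38670508 in ESC2. Levels are given as CPM, the count scaled to a common library size with TMM factors, and are not divided by gene length. All 12 ES cell markers examined, among them Pou5f1, Nanog and Zfp42, were at 43.9 CPM or more in each of the 4 libraries, and none was called between the groups. The spread was unequal: by a 2-fold rule on log2(CPM + 1), 0 of the 12149 genes that averaged 1 CPM or more differed between ESC and ESC2. Between the OHT libraries 470 of 12698 (3.7%) did, of which 421 were higher in ESC2_OHT. Because these are bulk samples, more cells of a kind and more RNA per cell cannot be told apart.

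Terf2 (ENSMUSG00000031921, GRCm38 chromosome 8, 107069400 to 107096547, minus strand) was nearly absent after OHT. Its level was 18.3 CPM in ESC and 19.5 in ESC2, against 0.281 in ESC_OHT and 0.392 in ESC2_OHT, from 554, 732, 9 and 10 counts. Both OHT libraries lay far below both untreated ones, and the log2 fold change of OHT over untreated was -5.82 (SE 0.26, edgeR adjusted p = 0.00622). Of the 6 other shelterin genes none was called, where 0.534% of all genes tested were. Terf1, which encodes the related TTAGGG-binding subunit TRF1, was at 153 and 114 CPM in untreated cells and at 180 and 92.4 CPM after OHT, so its groups overlapped. Terf2ip, whose product RAP1 is held at telomeres by TRF2, measured 44.5 and 41.1 CPM untreated and 51.3 and 38.3 CPM with OHT. Tinf2, the gene of the bridging subunit TIN2, overlapped as well, and Acd, which encodes TPP1, had a log2 fold change of -0.32 (edgeR adjusted p = 0.322). The single-strand binding subunits differed little, with -0.15 for Pot1a (edgeR adjusted p = 0.588) and overlapping groups for Pot1b. Tert, the catalytic subunit of telomerase, was at 26.7 and 24.4 CPM untreated and 10.5 and 21.4 CPM with OHT (log2 fold change -0.68, edgeR adjusted p = 0.338). The lower of its OHT values was that of pair 1.

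Genes called higher far outnumbered genes called lower. With edgeR's quasi-likelihood test over 15535 genes, 83 were called at an adjusted p under 0.05 (0.534%), of which 81 were higher with OHT (0.521%) and 2 lower (0.0129%). Before adjustment, 1631 genes were higher (10.5%) and 1210 lower (7.79%) at p under 0.05. The 81 had a median level of 0.704 CPM without OHT and 7.55 CPM with it, and 44 of them had an untreated mean under 1 CPM. All 81 were higher in both pairs, and in each both OHT libraries lay above both untreated ones, as 3913 genes tested (25.2%) did. For 69 of them the change was larger in pair 1, and for 12 in pair 2. Without the ESC library 17 genes were called higher and 1 lower, and without ESC2 19 and 1. Leaving out ESC_OHT gave 3053 higher and 3112 lower, and leaving out ESC2_OHT 2266 and 2116, fits in which the spread comes from the untreated libraries alone. DESeq2 called 285 higher and 86 lower, including all 83. Called without either untreated library were 18 genes: Terf2, all 8 Zscan4 genes, 7 genes of 1 cluster on chromosome 10, Gm21761 and Usp17lb. The other 65 lost their call in at least 1 of those fits.

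The matched pairs shared more of their increases than of their decreases. In pair 1, 256 of 12340 genes were at least 2-fold higher with OHT (2.07%) and 134 lower (1.09%), and in pair 2, 300 of 12526 were higher (2.4%) and 92 lower (0.734%). These values have no replicate. Higher in both were 151 of 12172 genes (1.24%), which is 59% of the genes higher in pair 1 and 50.3% of those higher in pair 2. Lower in both were 10 (0.0822%), or 7.46% and 10.9% of the respective lists. Another 8 genes moved past 2-fold in opposite directions. Across the 12172 genes the changes of the pairs correlated with r = 0.569 (Pearson) and rho = 0.457 (Spearman), a description over genes, which are not independent replicates.

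**Figure D1:**
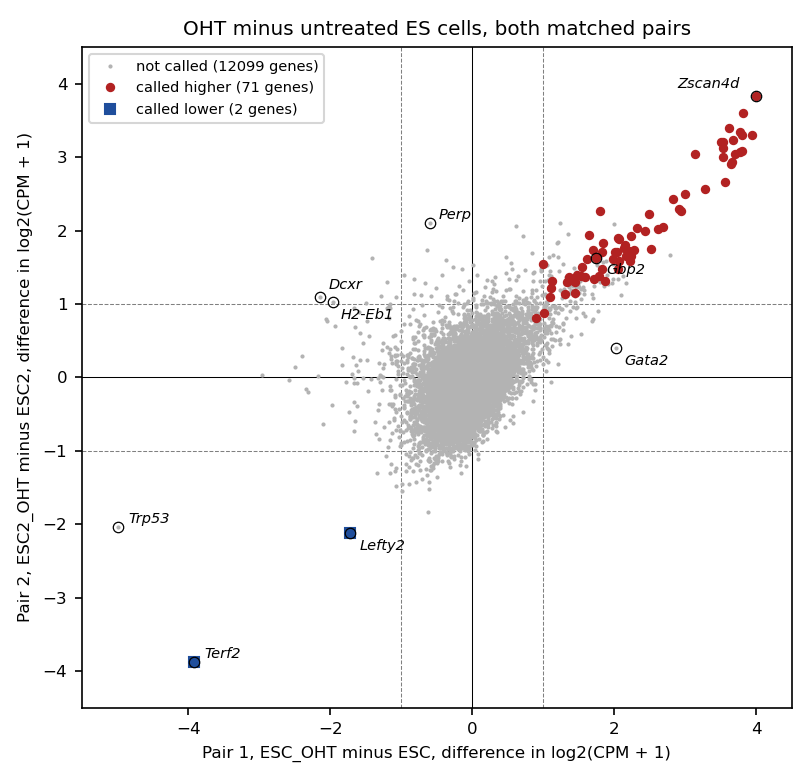
Change of each gene with OHT in pair 1 (horizontal axis) and pair 2 (vertical axis), as differences in log2(CPM + 1), for the 12172 genes that averaged 1 CPM or more in each pair; dashed lines mark 2-fold. Genes called higher lie in the upper right, Terf2 and Lefty2 in the lower left, Trp53 far to the left, and Dcxr and H2-Eb1 in the upper left.

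Two-cell genes, which are normally transcribed at the activation of the mouse embryo's genome, made up 20 of the 81 genes called higher. Of the 62 tested, 20 were called higher and 0 lower, with 57 positive and a median log2 fold change of 2.92, against -0.0082 over all genes tested. Past 2-fold in both pairs were 26, all higher. The pair medians, over members that averaged 1 CPM or more, were 1.45 and 1.30. The list was written with earlier results of these data known, so it is no independent evidence of its direction. Without ESC 7 members were called and without ESC2 9.

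Zscan4 genes, which encode zinc-finger proteins linked to telomere elongation in ES cells, were called higher at all 8 copies in the table. Summed over the 8 copies, their level was 17.2 CPM in ESC and 18.2 in ESC2, against 337 in ESC_OHT and 270 in ESC2_OHT. That is 19.6-fold in pair 1 and 14.8-fold in pair 2. Zscan4d, the copy with the largest fold change, was at 1.89 and 1.81 CPM in untreated cells and at 45.1 and 38.9 CPM after OHT (log2 fold change 4.5, SE 0.20, edgeR adjusted p = 0.00622). Zscan4c, a marker of the two-cell-like state, went from 3.44 and 2.90 CPM to 61.1 and 46.3 CPM (log2 fold change 4.08, SE 0.23, edgeR adjusted p = 0.00624). Zscan4b, Zscan4e and Zscan4f had log2 fold changes of 4.19, 4.16 and 3.98, and 3 copies annotated as Zscan4-ps1, Zscan4-ps2 and Zscan4-ps3 had 4.08, 3.94 and 3.93. How reads shared by near-identical copies were assigned is not given in the sources used here, so single copies are uncertain and the sum is the firmer value.

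The Usp17l genes, which encode deubiquitinases, rose at all 5 copies tested. Their summed level was 4.2 and 4.21 CPM untreated and 84.9 and 49.6 CPM with OHT, or 20.2-fold and 11.8-fold. Usp17lb went from 0.894 and 0.719 CPM to 23.7 and 13.1 CPM (log2 fold change 4.51, SE 0.38, edgeR adjusted p = 0.0191). The others, Usp17la, Usp17lc, Usp17ld and Usp17le, had log2 fold changes of 3.72, 4.38, 3.70 and 3.64. In all 5 the value of ESC_OHT was above that of ESC2_OHT. Without ESC only Usp17lb kept its call, and without ESC2 Usp17lb and Usp17lc did.

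Several called two-cell genes were close to zero without OHT, so their folds carry wide counting error. Tcstv3 had 2 and 3 counts untreated and 90 and 72 with OHT, a ratio of summed CPM of 38.2 (exact 95% interval 16.0 to 119, counting error only). Tdpoz4, of a family with TRAF and POZ domains, had 3 and 1 counts against 114 and 50, a ratio of 48.3 (18.5 to 179). The related Tdpoz3 had 4 and 3 counts against 79 and 59 (log2 fold change 4.47, edgeR adjusted p = 0.0308). Neither Tcstv1 nor Zfp352 was called, although both were past 2-fold in both pairs. Tcstv1 had 7 and 2 counts against 107 and 62 (edgeR adjusted p = 0.059), and Zfp352, another two-cell zinc-finger gene, 3 and 10 against 211 and 77 (edgeR adjusted p = 0.0529). The Dux copy annotated as Duxf3, which belongs to the transcription factor family that opens the two-cell programme, had 9 and 11 counts untreated and 69 and 36 with OHT (log2 fold change 2.58, SE 0.44, edgeR adjusted p = 0.0848). Of 24 repressors of the programme none was called, and their median was -0.21. Over all genes tested 0.534% were called, so a list of 24 would hold few calls or none in any case. Trim28, the KAP1 corepressor, was at 2611 and 2636 CPM in untreated cells and at 2172 and 1598 CPM after OHT (log2 fold change -0.48, edgeR adjusted p = 0.268).

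Called genes lay side by side on the chromosomes, a description made after the calls were seen. Of the 81, 57 fell in 12 runs in which neighbouring called genes were at most 1 Mb apart, and 46 of these in 7 runs of 4 or more. All genes tested inside the 12 runs had positive fold changes, whether called or not. Genes almost silent without OHT can pass the gene filter through the OHT libraries, and such genes can hardly come out negative. The shared sign is therefore partly set by the filter and adds little support. Near-identical copies lie side by side in several runs and can share reads, so their members are not independent of each other.

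On chromosome 7 the Zscan4 run covers 10900740 to 11614112 and all 8 genes tested there were called. On chromosome 10 a run of 7 genes known only by model names, from Gm21293 to Gm4340, spans 104142987 to 104196522. Their summed level was 12.3 and 14.1 CPM untreated and 236 and 167 CPM with OHT, and all 7 genes tested in the run were called. Gm21304 in that run had 1.72 and 1.57 CPM untreated and 33.7 and 23.1 CPM with OHT (log2 fold change 4.11, SE 0.27, edgeR adjusted p = 0.00815). A run on chromosome 5, 93924777 to 95746617, held 8 called among 18 tested genes, with a median log2 fold change over the 18 of 4.47. Its called genes summed to 0.662 and 0.985 CPM untreated and to 24.6 and 17.3 CPM with OHT. Another on chromosome 13, 119836006 to 120318178, held 6 called of 13 tested, from D13Ertd608e to Tcstv3, and ends at the last annotated gene of that chromosome. The runs on chromosome 4 (143511343 to 144364419, 6 of 12) and chromosome 3 (93068823 to 94266784, 4 of 18) include the Prame-like gene Pramef25 and the Tdpoz genes. Pramef25 had 0.166 and 0.373 CPM untreated and 4.40 and 3.14 CPM with OHT (log2 fold change 3.76, edgeR adjusted p = 0.0493). On chromosome 12, 87795512 to 88324026, 7 of 13 genes were called at smaller folds, and their sum went from 15.5 and 17.3 CPM to 67.7 and 69.6 CPM. Gm8332 there, with 3.01 and 3.22 CPM untreated and 12.1 and 13 CPM with OHT, had a log2 fold change of 2.01. Unlike the Zscan4 and chromosome 10 runs, the chromosome 12 sum was not larger in ESC_OHT than in ESC2_OHT. Genes called singly, 24 in all, were outside these runs, and none of them has a model name.

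**Figure D2:**
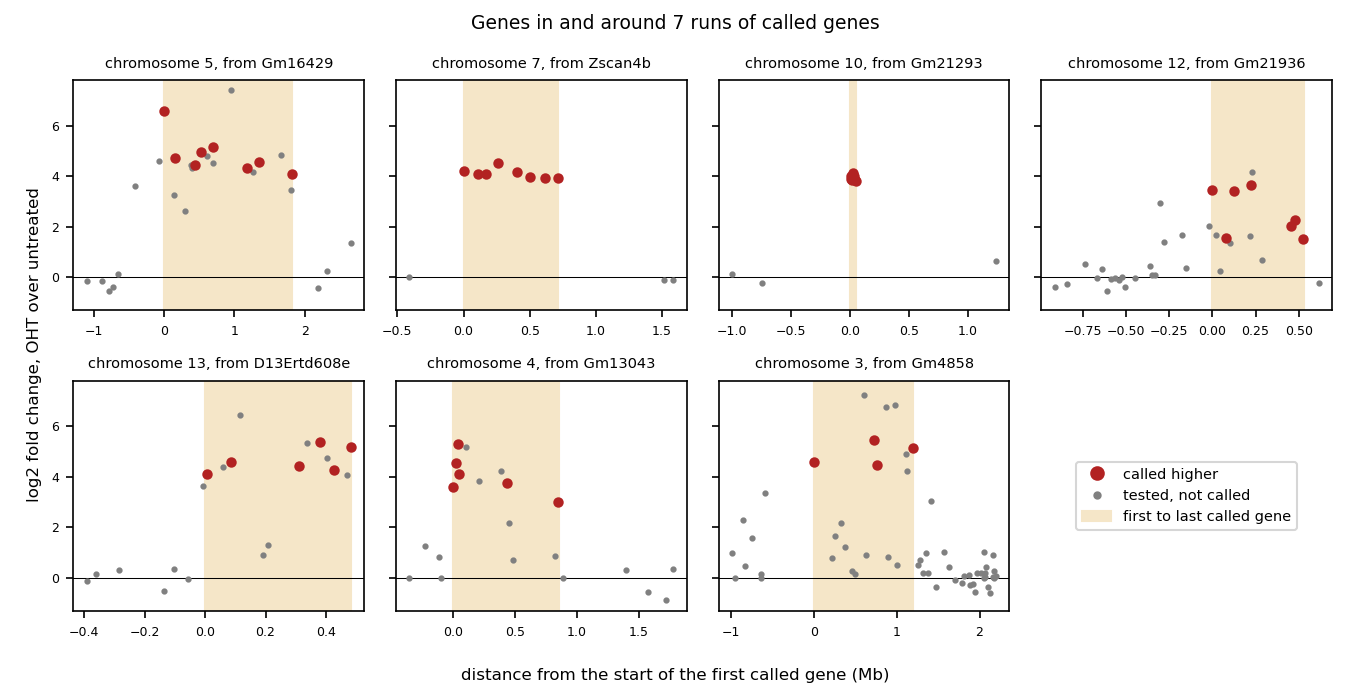
Log2 fold change of the genes tested in and around the 7 runs with 4 or more called genes, against distance in Mb from the first called gene (shaded, first to last called gene; red, called higher; grey, tested and not called). Inside the shaded spans every point lies above 0, including genes not called, while most genes outside are near 0. Genes almost silent without OHT that pass the filter can hardly fall below 0.

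Promoters of 4 of these runs share a short sequence. They are shown because genes of different families rose together. Printed for each run is the called gene with the largest fold change among those with a match, plus Usp17lb. The sequences are the 250 bases before the annotated start in RefSeq (GRCm38.p6), 5′ to 3′ on the strand of the gene. Capitals mark GATNNAATC and TATAAA, on either strand.
Zscan4d, chr7:11166149-11166398, minus strand: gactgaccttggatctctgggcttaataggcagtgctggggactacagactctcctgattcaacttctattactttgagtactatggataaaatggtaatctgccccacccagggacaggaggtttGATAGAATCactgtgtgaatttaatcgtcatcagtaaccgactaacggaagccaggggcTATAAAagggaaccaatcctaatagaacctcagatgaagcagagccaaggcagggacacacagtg
Gm21304, chr10:104168265-104168514, plus strand: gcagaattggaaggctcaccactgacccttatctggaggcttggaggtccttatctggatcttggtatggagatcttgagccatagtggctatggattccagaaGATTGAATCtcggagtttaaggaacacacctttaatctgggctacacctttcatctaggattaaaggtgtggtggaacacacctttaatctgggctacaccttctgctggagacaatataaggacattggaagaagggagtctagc
Gm21761, chr13:119913469-119913718, minus strand: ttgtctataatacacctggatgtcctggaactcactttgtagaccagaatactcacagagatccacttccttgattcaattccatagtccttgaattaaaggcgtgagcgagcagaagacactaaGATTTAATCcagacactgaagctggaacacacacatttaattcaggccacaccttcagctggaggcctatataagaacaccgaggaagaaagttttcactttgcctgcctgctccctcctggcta
Gm13057, chr4:143551450-143551699, plus strand: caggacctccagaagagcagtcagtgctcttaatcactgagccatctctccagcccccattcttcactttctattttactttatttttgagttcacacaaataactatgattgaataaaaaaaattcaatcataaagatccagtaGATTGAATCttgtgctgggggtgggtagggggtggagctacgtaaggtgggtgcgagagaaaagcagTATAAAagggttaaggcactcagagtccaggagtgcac
Usp17lb, chr7:104842584-104842833, minus strand: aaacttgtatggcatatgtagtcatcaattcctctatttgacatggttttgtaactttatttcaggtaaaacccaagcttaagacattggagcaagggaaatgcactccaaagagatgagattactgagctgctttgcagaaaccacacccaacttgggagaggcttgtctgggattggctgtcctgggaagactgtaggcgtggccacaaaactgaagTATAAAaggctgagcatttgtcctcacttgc

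GATNNAATC, in which N is any base, occurred once in each of the promoters of Zscan4d, Gm21304, Gm21761 and Gm13057, 105 to 146 bases before the start, and not in that of Usp17lb. It was 1 of 19 patterns searched on both strands, and the patterns described and the promoters printed were chosen after their matches had been seen. Among 11927 genes tested that have a RefSeq promoter, 1.2% held it, and among the 45 called higher 15 (33.3%) did. Those 15 came from 4 runs and none from outside a run, so they are few independent sequences. Longer and stricter patterns with a similar core, also among the 19, matched 0 of the 45. Each of these is rare, at 4 or fewer of the 11927 promoters. Whether GATNNAATC is the site of any factor was not tested. TATAAA stood in 8.73% of all and in 14 of the 45 (31.1%), and GGGCGG, the GC box, in 60.8% of all and in 11 of the 45 (24.4%). TTAGGG, the telomere repeat unit, was in 11.6% of all and in 3 of the 45. Of the 19 patterns, 9 had a higher share among called genes and 9 a lower one, and TGACTCA and TGAGTCA, both in the count, are the same site read on opposite strands. A match describes letters and not a bound site.

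Outside the two-cell families, the genes that rose have varied roles. Each is given with its level in both untreated and then both OHT libraries, and each lost its call without ESC and without ESC2. Stra8, the retinoic acid-induced gatekeeper of meiosis, went from 6.65 and 6.33 CPM to 32.5 and 23.8 CPM (log2 fold change 2.12, SE 0.22, edgeR adjusted p = 0.0308). Spesp1, which encodes a sperm equatorial segment protein, went from 1.16 and 1.14 CPM to 10.6 and 7.53 CPM (2.98, SE 0.29, edgeR adjusted p = 0.026). Tie1, a receptor tyrosine kinase of endothelial cells, was at 0.364 and 0.346 CPM and reached 9.49 and 5.45 CPM (4.39, SE 0.41, edgeR adjusted p = 0.025). In each of these genes the OHT libraries stood well apart from the untreated ones, with ESC_OHT the higher. Chit1, a chitinase gene of macrophages, rose from 1.13 and 1.01 CPM to 14.0 and 9.84 CPM (3.48, SE 0.29, edgeR adjusted p = 0.018). Gpnmb, a transmembrane glycoprotein gene, rose from 6.19 and 5.78 CPM to 27.4 and 19.8 CPM (1.98, SE 0.22, edgeR adjusted p = 0.0376). Selenop, the plasma selenium carrier, and Atp12a, a proton pump subunit, had log2 fold changes of 2.05 and 2.32.

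Also higher with OHT were a few genes already at 15.2 CPM or more in untreated cells. Txnip, an inhibitor of thioredoxin, was at 124 and 116 CPM in untreated cells and at 346 and 306 CPM after OHT (log2 fold change 1.44, SE 0.15, edgeR adjusted p = 0.0288). Icam1, a leukocyte adhesion receptor, measured 43.4 and 41.3 CPM and then 108 and 91.9 CPM (1.24, SE 0.15, edgeR adjusted p = 0.0412). Id2, an inhibitor of basic helix-loop-helix factors and a BMP target, was at 15.2 and 16.5 CPM and then 47.3 and 44 CPM (1.53, SE 0.14, edgeR adjusted p = 0.0252). In these 3 genes both OHT libraries lay well above both untreated ones. Clu, the chaperone clusterin, rose from 20.9 CPM in both untreated libraries to 46.8 and 53.5 CPM (1.26, SE 0.14, edgeR adjusted p = 0.0376). Krt18, a keratin of simple epithelia, rose from 15.4 and 18.5 CPM to 43.7 and 42.0 CPM (1.34, SE 0.16, edgeR adjusted p = 0.0414). Its partner Krt8 was at 35.3 and 32.3 CPM and 47.9 and 44.1 CPM (0.45, edgeR adjusted p = 0.201), so it was not called. Pdpn, which encodes podoplanin, was past 2-fold in both pairs at 31.9 and 28.8 CPM against 81.0 and 63.4 CPM, and missed the threshold (edgeR adjusted p = 0.0533). None of these calls held without ESC or without ESC2.

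The guanylate-binding proteins are interferon-induced GTPases. Gbp2 rose from 0.331 and 0.373 CPM to 3.46 and 3.25 CPM (log2 fold change 3.24, SE 0.23, edgeR adjusted p = 0.0106), and its neighbour Gbp2b from 0.166 and 0.186 CPM to 3.00 and 2.08 CPM (3.82, SE 0.34, edgeR adjusted p = 0.0213). Both lost their call without ESC or without ESC2. Of 28 interferon-stimulated genes tested, Gbp2 was the 1 called, 17 were positive and the median was 0.25, with pair medians of -0.10 and -0.03. Of 13 genes of cytosolic nucleic acid sensing none was called (median -0.19), where 0.534% of all genes tested were.

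**Figure D3:**
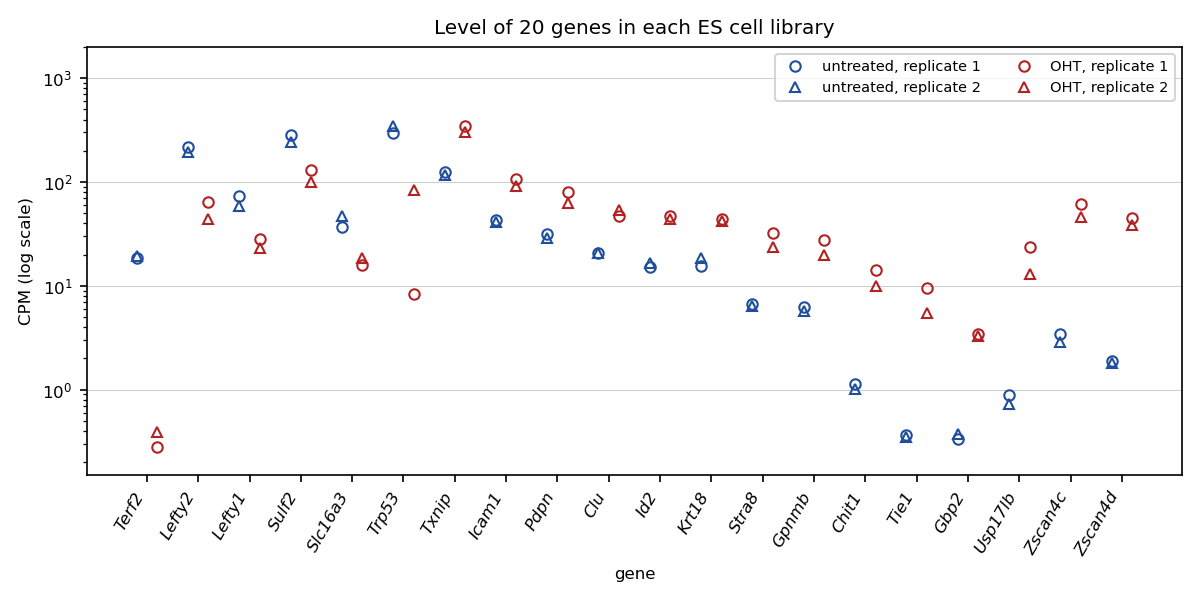
Level of 20 genes in each ES cell library, in CPM on a log axis (blue, untreated; red, OHT; circles, replicate 1; triangles, replicate 2). The libraries of a group lie close together for most genes, while the OHT libraries of Trp53 lie apart, at 8.39 and 83.1 CPM.

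Lefty2 was the only gene besides Terf2 called lower. It encodes a secreted inhibitor of Nodal and was at 215 and 195 CPM in untreated cells and at 64.2 and 44.1 CPM after OHT (log2 fold change -1.92, SE 0.21, edgeR adjusted p = 0.0376). The call was lost without ESC and without ESC2. The neighbouring paralog Lefty1 was at 73.3 and 58.1 CPM against 28.1 and 23 CPM (-1.36, SE 0.19, edgeR adjusted p = 0.0551). Both were past 2-fold in both pairs. That nearly fixes the lack of overlap between their groups, which adds no support. Nodal itself, the ligand, was at 131 and 138 CPM in untreated cells and at 112 and 219 CPM after OHT, lower in pair 1 and higher in pair 2. Its proprotein convertase Pcsk6 had 81.1 and 80.0 CPM against 47.6 and 42.5 CPM (-0.84, SE 0.14, edgeR adjusted p = 0.0737). For the receptor gene Acvr1b the log2 fold change was -0.62 (edgeR adjusted p = 0.158) and for the coreceptor gene Tdgf1 -0.37 (edgeR adjusted p = 0.218). Of 21 genes of Nodal, activin and Lefty signalling tested, 16 were negative, the median was -0.37 and Lefty2 alone was called.

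The other genes past 2-fold lower in both pairs were Sulf2, Slc16a3, Pycr1, Klf15, Fgf10, Notch4 and Trp53, none of them called. Sulf2, a heparan sulfate endosulfatase gene, was at 281 and 245 CPM in untreated cells and at 132 and 100 CPM after OHT (log2 fold change -1.18, SE 0.19, edgeR adjusted p = 0.07). Slc16a3, the lactate exporter MCT4, was at 36.9 and 46.9 CPM and then 16.0 and 18.4 CPM (-1.29, SE 0.19, edgeR adjusted p = 0.0599). Pycr1, an enzyme of proline synthesis, was at 10.0 and 11.9 CPM and then 3.99 and 4.70 CPM (-1.34, edgeR adjusted p = 0.07). The values of all 7 genes were lower in both OHT libraries than in either untreated one, as those of 4291 genes tested (27.6%) were. Being picked as 2-fold lower in both pairs nearly fixes this, so it adds no support.

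Trp53, the gene of p53 (GRCm38 chromosome 11, 69580359 to 69591873, plus strand), differed in size between the pairs. It was at 299 CPM in ESC and 345 in ESC2, at 8.39 in ESC_OHT and 83.1 in ESC2_OHT, from 9035, 12951, 269 and 2119 counts. The difference in log2(CPM + 1) was -5.00 in pair 1 and -2.04 in pair 2. The group contrast gave a log2 fold change of -2.82 (SE 0.94) that was not called (edgeR adjusted p = 0.214). Both OHT libraries lay below both untreated ones, and they lay further from each other than those did. The labels name no change to Trp53, and only its RNA was measured here.

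The known transcriptional targets of p53 differed between the pairs. In pair 1, 19 of 39 measured targets were past 2-fold lower and 1, Gadd45a, higher. In pair 2 none was lower and 5 were higher: Perp, Cd80, Dcxr, Plk2 and Pmaip1. The median difference was -0.93 in pair 1 and 0.04 in pair 2, where all genes had -0.08 and -0.05. No test of the difference between pairs is possible, because each has 1 library a side. Ccng1, which encodes cyclin G1, was at 276 and 302 CPM untreated, at 45.2 CPM in ESC_OHT and at 295 CPM in ESC2_OHT. Mdm2, the ubiquitin ligase that degrades p53, was at 182 and 202 CPM untreated, at 79.8 CPM in ESC_OHT and at 356 CPM in ESC2_OHT. In both genes ESC_OHT was the lowest of the 4 libraries. Perp, a desmosomal and proapoptotic membrane protein gene, was at 6.16 and 8.57 CPM untreated, at 3.74 CPM in ESC_OHT and at 40.0 CPM in ESC2_OHT. Cdkn1a, which encodes the CDK inhibitor p21, was at 37.4 and 37.3 CPM in untreated cells and at 32.9 CPM in ESC2_OHT, with log2(CPM + 1) differences of -0.93 in pair 1 and -0.18 in pair 2 and a fitted log2 fold change of -0.52 (edgeR adjusted p = 0.352). Zmat3 was lower with OHT in both pairs (43.7 and 42.9 CPM against 16.4 and 24.8 CPM, edgeR adjusted p = 0.12), and Gadd45a, a growth arrest gene, higher in both (12.6 and 11.6 CPM against 26.3 and 23.5 CPM, edgeR adjusted p = 0.07). Where 0.534% of all genes tested were called, none of the 40 targets tested was. Their median log2 fold change of -0.19 became 0.11 without ESC_OHT, so the sign in the group contrast rests on that library.

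**Figure D4:**
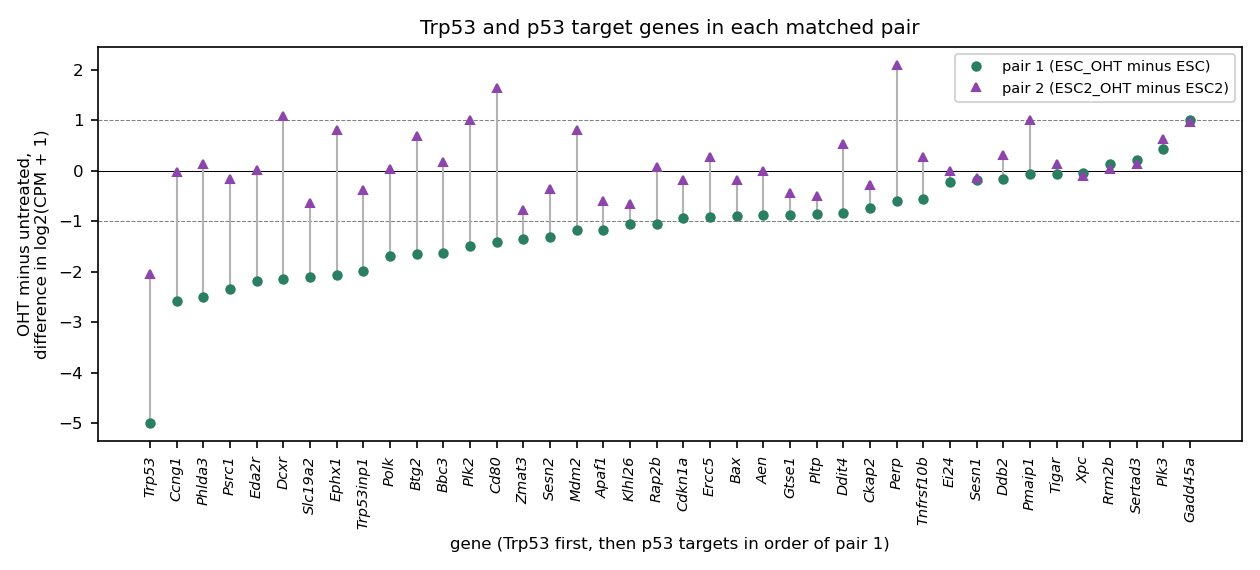
Difference with OHT in log2(CPM + 1) for Trp53 and for the 39 p53 targets that averaged 1 CPM or more in both pairs (circles, pair 1; triangles, pair 2; dashed lines, 2-fold). Trp53 was lower in both pairs, at -5.00 and -2.04, whereas most targets lie below 0 in pair 1 and around 0 in pair 2.

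Other genes differed between the pairs as well. The largest differences, pair 2 above pair 1, were in Dcxr, Zfp365, H2-Eb1, Trp53, Ephx1, Rtkn, Zfp750 and Perp. Dcxr, a sugar reductase gene, was at 11.9 and 13.9 CPM untreated, at 1.93 CPM in ESC_OHT and at 30.9 CPM in ESC2_OHT. H2-Eb1, an MHC class II gene, was at 11.5 and 20.02 CPM, at 2.18 CPM in ESC_OHT and at 41.8 CPM in ESC2_OHT. The 8 genes past 2-fold in opposite directions, Dcxr and H2-Eb1 with Cd80, Plk2, Anxa8, Serpine2, Inka2 and 1700007K13Rik, were each lower in pair 1 and higher in pair 2. In the reverse direction, Gata2, a trophoblast and blood transcription factor gene, was at 11.3 and 11.7 CPM untreated, at 48.8 CPM in ESC_OHT and at 15.7 CPM in ESC2_OHT. None of the 81 genes called higher was 2-fold apart between the OHT libraries, where 470 of 12698 genes (3.7%) were. The test behind the calls uses the spread between replicates, so called genes are selected for OHT libraries that lie close together.

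No gene of the lists on the telomere damage response was called. Of 15 genes of ATM and 53BP1 signalling tested, of 14 of end joining, of 26 of the ATR checkpoint and homologous recombination and of 17 of telomere replication and processing, none was called. Over all genes tested 0.534% were called, so lists of this size would hold few calls or none in any case. Their medians were -0.16, -0.22, -0.28 and -0.16, and negative were 12, 13, 21 and 12 members. The median over all genes was -0.0082, with 7881 of 15535 negative. Atm, the kinase gene, was at 102 and 108 CPM in untreated cells and at 101 and 73.7 CPM after OHT (log2 fold change -0.27, edgeR adjusted p = 0.461). Rif1, which acts downstream of 53BP1, had 849 and 936 CPM against 764 and 665 CPM (-0.32, edgeR adjusted p = 0.326). Parp1, of alternative end joining, had 1334 and 1205 CPM against 1060 and 851 CPM (-0.41, edgeR adjusted p = 0.281), and Xrcc6, which encodes Ku70, -0.37 (edgeR adjusted p = 0.264). Brca2 was past 2-fold lower in pair 2 (213 against 96.0 CPM) and not in pair 1 (207 against 153 CPM). A p that misses the threshold does not show that these genes did not differ.

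Pluripotency genes leaned lower without a call. Of 31 naive pluripotency genes tested, 24 were negative, with a median of -0.32 and pair medians of -0.34 and -0.33. An unadjusted edgeR p under 0.05 for a decrease was found for 15 of the 31. Over all genes tested, 7881 of 15535 were negative and 1210 (7.79%) had such a p. Tfcp2l1 was at 127 and 138 CPM in untreated cells and at 82.6 and 62.1 CPM after OHT (log2 fold change -0.87, SE 0.18, edgeR adjusted p = 0.117). Klf4 had 319 and 302 CPM against 206 and 138 CPM (-0.85, edgeR adjusted p = 0.152), and Esrrb 322 and 339 CPM against 224 and 169 CPM (-0.75, edgeR adjusted p = 0.147). In these 3 transcription factor genes, taken from the list by size of change, ESC2_OHT was lowest and both OHT libraries lay below both untreated ones. The same lack of overlap held for 20 of the 31 naive genes and for 4291 of 15535 genes tested (27.6%). The core pluripotency list, which shares some members with the naive one, leaned the same way. Of its 14 genes tested 11 were negative and 3 positive, with a median of -0.27 and pair medians of -0.22 and -0.40. Pou5f1, a core factor among the positive ones, was at 1288 and 1316 CPM and then 1368 and 1441 CPM (0.11, edgeR adjusted p = 0.702). Dppa3, a naive and germline gene, was higher, at 10.4 and 18.7 CPM against 23.4 and 27.2 CPM (0.80, edgeR adjusted p = 0.25).

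Germline and trophoblast lists lay on the other side, as did several more. Among those, senescence-associated secretory genes had a median of 0.89 (14 of 17 positive) and immediate early genes 0.64 (18 of 19), with 0 called in either. Their pair medians were smaller, at 0.21 and 0.35 and at 0.31 and 0.38, over genes that averaged 1 CPM or more. Of the senescence genes only 6 did so in pair 1 and 6 in pair 2. Genes almost silent without OHT can pass the filter through the OHT libraries, which favours positive values. Of 30 germline and meiosis genes tested, 28 were positive with a median of 0.89 and pair medians of 0.75 and 0.81, and Stra8 was called. Sycp3, of the synaptonemal complex, was at 6.42 and 6.63 CPM in untreated cells and at 17.1 and 16.6 CPM after OHT (log2 fold change 1.37, SE 0.18, edgeR adjusted p = 0.0501). Sycp1 of the same complex had 6.55 and 8.76 CPM against 28.6 and 22.7 CPM (1.74, SE 0.23, edgeR adjusted p = 0.0523). Taf7l, a germ cell TFIID subunit gene, had 3.38 and 6.02 CPM against 16.4 and 28.8 CPM (2.26, edgeR adjusted p = 0.0857). Of 20 trophoblast genes 18 were positive with a median of 1.16 and smaller pair medians of 0.66 and 0.44. Krt18, which other epithelia also express, was called. Rhox6 was at 4.14 and 4.39 CPM against 12.2 and 11.9 CPM (1.5, edgeR adjusted p = 0.0501). The summed level of all 22 trophoblast markers was 227 to 228 CPM untreated and 297 to 348 CPM with OHT, and the placental markers Prl3d1 and Tpbpa were at 0 in all 4 libraries.

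Markers of other cell types were summed in the same way. Fibroblast and feeder cell markers, 26 genes, summed to 2390 to 2410 CPM untreated and 1580 to 2200 CPM with OHT, with Fap and Prrx1 at 0 in all 4 libraries. Endothelium and blood markers, 23 genes, summed to 312 to 350 CPM and 206 to 360 CPM, although Tie1 belongs to them, with Emcn and Hba-x at 0. Primitive and visceral endoderm markers, 25 genes, summed to 2670 to 2850 CPM and 2580 to 4090 CPM, with Ttr at 0. Mesoderm markers, 18 genes, summed to 31.6 to 32.5 CPM and 36.7 to 40.3 CPM, with Lhx1 at 0, and 12 smooth muscle markers to 306 to 329 CPM and 345 to 447 CPM. Neural ectoderm markers, 20 genes, summed to 696 to 784 CPM and 637 to 722 CPM, and 19 simple epithelium markers to 1670 to 1730 CPM and 1580 to 1800 CPM. Fibroblast sums were thus lower and trophoblast, mesoderm and smooth muscle sums higher in both OHT libraries, and the other ranges overlapped. The fibroblast sum and the list's single genes differed in sign: of 24 tested 19 were positive and 4 negative, with a median log2 fold change of 0.57 and pair medians of 0.22 and 0.23. What these cells add to the results was not tested. None of the endoderm, mesoderm, neural, fibroblast or smooth muscle genes was called, where 0.534% of all genes tested were.

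Sterol synthesis genes leaned lower without a call. Of 24 genes 22 were negative, with a median log2 fold change of -0.41, the lowest of the 41 lists in the fit over all libraries. Its pair medians were -0.41 and -0.32. Those of Wnt signalling were lower, at -0.46 and -0.40, with a fitted median of -0.29 over 23 genes, none of them called. Mvk, mevalonate kinase, was at 33.5 and 31.7 CPM in untreated cells and at 18.5 and 20.5 CPM after OHT (log2 fold change -0.74, SE 0.14, edgeR adjusted p = 0.0982). Nsdhl, a later enzyme of the pathway, was at 35.6 and 36.3 CPM and then 20.3 and 23 CPM (-0.73, SE 0.14, edgeR adjusted p = 0.1). In both genes the groups stood apart and the libraries of a group lay close together. Groups stood apart in this direction for 17 of the 24 list members and for 27.6% of all genes tested. Of 28 glycolysis and hypoxia genes 21 were negative with a median of -0.25. Hk2, hexokinase 2, was at 481 and 432 CPM and then 321 and 179 CPM (-0.87, edgeR adjusted p = 0.207). No member was called in the lists of replication (34 genes, median -0.14), the integrated stress response (22 genes, -0.10) or the oestrogen receptors and their targets (13 genes, -0.11). Without ESC2_OHT the last of these 3 medians was 0.04, as was that of the stress response. Over all genes tested 0.534% were called, so lists of this size would hold few calls or none in any case.

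**Figure D5:**
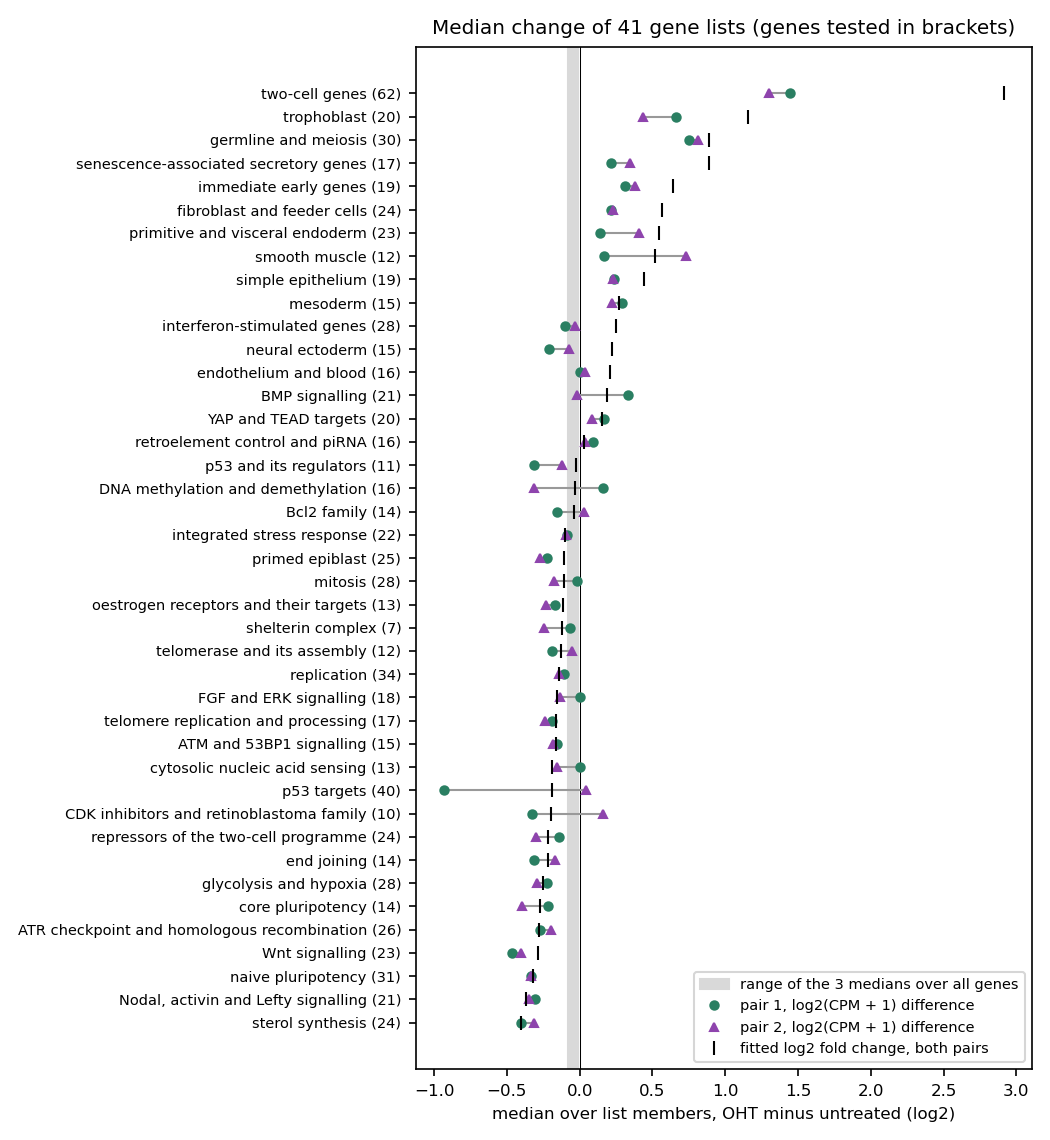
Median change of 41 gene lists with OHT, in log2 units (circles, pair 1; triangles, pair 2; ticks, fitted fold change; shading, the medians of all genes). Two-cell genes stand far to the right at 2.92 in the fit, sterol synthesis has the lowest fitted median at -0.41, and p53 targets have the widest gap between the pairs, with pair 1 farthest left at -0.93 and pair 2 at 0.04.

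Genes near chromosome ends were examined because TRF2 binds telomeres. Ends were taken as the first and last annotated gene of each chromosome. Within 5 Mb of the distal end, 7 of 874 genes were called higher (0.801%, against 0.522% over all genes with a position), and the median log2 fold change was -0.09. Of the 7, 6 are the run on chromosome 13 and the other is Krt18, which lies 1867.3 kb from the last annotated end of chromosome 15. Without chromosome 13 it was 1 of 847 (0.118%), and the median -0.10. Within 5 Mb of the centromeric end 2 of 709 were called (0.282%, median 0.0065). On chromosome 13 the called genes lay 0 to 471.6 kb from the last annotated gene end, with Tcstv3 last and D13Ertd608e furthest away.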

How the data were processed

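The values deposited by the authors are counts, whole numbers that were not normalized, for 22600 genes in 6 libraries. A gene length beside them entered no test. Per the submitters' processing notes, Salmon, DESeq2 and the build GRCm38 were used, without versions or roles. The kit was TruSeq Stranded Total RNA LT, as the labels' protocols state. For the counting settings, and how shared reads were split: not given in the sources used here. Total counts of the 4 ES cell libraries ran from 23534551 to 38670508, and a count of 0 allows up to 3 counts, or 0.0798 to 0.118 CPM. No barcodes for single molecules are named, so counting intervals cover counting error only. The 13 mitochondrial genes had no count in the ES cell libraries.

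Genes were filtered by group with filterByExpr and scaled by TMM, which left 15535. One mean per group was fitted over all 6 libraries with the quasi-likelihood test of edgeR 4.0.16 (limma 3.58.1, R 4.3.3), adjusted by Benjamini-Hochberg, with calls at 0.05. The fit had 2 residual and 3.79 prior degrees of freedom and a common biological coefficient of variation of 18.5%, where the untreated pair alone gave 7.65% and the OHT pair 26.5%. SE is the log2 fold change over the root of F. Matched pairs were compared without a test, at 2-fold on log2(CPM + 1) with a mean of at least 1 CPM. Ratios of genes with few untreated counts have exact 95% intervals. Replicates were no duplicates: the chi-square over its degrees of freedom was 13.9 between the untreated and 70.6 between the OHT libraries, where sampling noise gives about 1. The fit was tested on simulated data. Those data gave each gene the same spread in both groups, unlike the unequal spread here, and their outcome is not reported.

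Symbols were matched for 22509 genes, and positions are from GENCODE M21 (GRCm38). No genome sequence was used, so chromosome ends are annotated gene ends. Promoters are from RefSeq (GRCm38.p6). The members, the 41 gene lists and the rules were chosen with earlier results of these data known. Named were Terf2, shelterin genes and Trp53, up to 20 genes called per direction by fold change, all called lower, up to 10 per direction past 2-fold in both pairs by the smaller pair change and by CPM, up to 8 per direction by difference between pairs, and up to 5 per list. Model names and pseudogenes were left out of the genes ranked by fold change and by the smaller pair change. Not every gene that the rule names is reported here. Members of called runs, p53 targets beyond the rule, Duxf3, Sycp3, Krt8, Pou5f1, Tdgf1, Nodal and some other list members were named after their values were seen, as were the run gap of 1 Mb and the sequence patterns. Fitted fold changes are printed only for genes whose groups do not overlap. Alternatives were relative log expression scaling, DESeq2 1.42.0, other filters and pseudocounts, the ES cell libraries alone, a replicate block and each library left out.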

Additional observations from a re-analysis of the deposited data

How the results depend on the processing

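Of 81 genes called higher and 2 lower, relative log expression scaling gave 112 and 2, DESeq2 285 and 86, no count filter 236 and 26, and the 4 ES cell libraries alone 143 and 5. All 83 were among the calls of the first 3, and 76 of the 81 among the 143. A filter of 5 CPM in 2 libraries gave 44 and 2, with 28 of the 81 not tested. Leaving out 1 library gave from 17 (without ESC) to 3053 (without ESC_OHT) higher and from 1 to 3112 lower. With the replicate number of the titles as a block, 814 were higher and 392 lower, on 1 residual degree of freedom, and deviations of same-numbered libraries correlated at r = 0.345. With 2 pairs and no shared batch in the labels, the numbers were not taken to pair the samples. Genes past 2-fold depended on the pseudocount. At 5 CPM, pair 1 had 63 higher and 67 lower, pair 2 72 and 40, and both pairs 40 and 5. At 0.5 CPM 16 were lower in both. With a mean of at least 5 CPM, 108, 136 and 61 were higher in pair 1, pair 2 and both. Of the 83 calls, 65 were lost in at least 1 setting. Of the other named genes, 154 were called in at least 1. The 245 genes examined were called or had groups that do not overlap, so their constant sign says nothing of stability. For 12 of the 41 lists the median changed sign in some setting. Runs held 52 of 81 genes at a gap of 0.2 Mb and 57 at 2 Mb, and 135 of the 285 called by DESeq2. These 3 alternatives were added after seeing the data. The centromeric window held 10 called of 1117 at 10 Mb (0.895%, against 0.522% over all genes with a position). The Zscan4 run of 8 called genes lies on the centromeric side of chromosome 7, at 10900740 to 11614112. No count without that run was made. Low untreated counts limit the folds of the two-cell genes. The cause of these shifts was not tested.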
